A study of Mus musculus with 12 samples.

Results

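Immediate early genes, 10 in all, were followed in the hind limb muscle of 12 mice. They were picked by symbol from a list of well-known members of this class, and comprised Fos, Fosb, Jun, Junb, Egr1, Egr2, Egr3, Atf3, Ier2 and Nr4a1, which are 10 of the 22923 gene symbols in the deposited tables. Each of the 10 was listed once, and all 10 passed the filter for testing (at least 3 samples at or above 1 FPKM, the count of sequenced fragments scaled by transcript length and by library size), as did 11945 symbols in all.

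Immediate early genes are transcribed within minutes of a stimulus, from factors already present in the cell, and most of their transcripts decay quickly. Fos and Jun proteins pair to form the transcription factor AP-1, the Egr proteins are zinc finger factors that bind GC-rich promoters, and Nr4a1 is an orphan nuclear receptor. In skeletal muscle this class is known to respond to contraction, growth factors and stress, and Nr4a1 in particular is linked there to the control of glucose use genes.

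The study asked what αB-crystallin (Cryab) and HspB2 (Hspb2), small heat shock proteins that are abundant in muscle, contribute to diet-induced obesity. Male mice of the FVB/N background (FVB in the labels), aged 22 weeks, either lacking both genes (KO) or littermates carrying them (WT), had been kept on normal chow or on a high fat diet, with 3 mice in each of the 4 groups. The titles mark the WT samples of both diets as Flox, and because both genes were deleted together the loss of Cryab and the loss of Hspb2 cannot be told apart. RNA came from proximal hind limb muscle as a whole, so for every gene below fewer cells of a type and less RNA per cell cannot be told apart. Libraries are named by group and replicate number, as in WT chow 1 or KO high fat 2.

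The libraries matched their titles. Cryab stood between 412 and 837 FPKM in the 6 WT libraries and between 0.845 and 1.75 FPKM in the 6 KO libraries, and Hspb2 between 81.5 and 103 FPKM against 0.353 and 1.92 FPKM. For 6 samples the genotype label said the opposite of the title, and in each of these the 2 genes followed the title. FPKM totals ran from 500034 to 693149 in 11 libraries, and KO chow 3 exceeded this only through Mir324. The number of reads behind a value is unknown, but relative depth inferred from the low values spanned 1 to 1.35 and size factors spanned 0.998 to 1.01. Of 12 muscle fibre markers 11 were tested, with creatine kinase (Ckm) between 13276 and 25896 FPKM and slow myosin (Myh7) between 3.20 and 138 FPKM, whereas Myh4 was listed under 0.1 FPKM in every library, and Acta1, skeletal muscle actin, was listed at 0 in WT chow 1 and KO high fat 2. WT chow 2, KO chow 1 and KO chow 3 stood apart through lymphocyte genes, with B cell marker sums of 48.0, 54.3 and 55.1 FPKM against 0.233 to 5.71 FPKM in the other 9 libraries.

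The 250 bases before the start site were read for 7 members from RefSeq (GRCm38.p6, the build of mm10). The windows of 5 genes are shown because Fos, Fosb and Junb varied together across the mice while Jun and Nr4a1 followed them less closely. They lie at chr12:85473640-85473889 on the plus strand (Fos), chr7:19310046-19310295 on the minus strand (Fosb), chr8:84978749-84978998 on the minus strand (Junb), chr4:95052223-95052472 on the minus strand (Jun) and chr15:101266596-101266845 on the plus strand (Nr4a1). Each is written from far to near the start, and capitals mark the half-site of the cAMP response element, TGACG on either strand, and the TATA box TATAAA on the forward strand.
Fos: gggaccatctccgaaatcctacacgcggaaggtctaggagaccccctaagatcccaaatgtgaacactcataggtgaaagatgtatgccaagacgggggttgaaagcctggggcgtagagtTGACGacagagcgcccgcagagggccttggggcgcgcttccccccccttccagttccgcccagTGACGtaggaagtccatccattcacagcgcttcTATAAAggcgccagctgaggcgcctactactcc
Fosb: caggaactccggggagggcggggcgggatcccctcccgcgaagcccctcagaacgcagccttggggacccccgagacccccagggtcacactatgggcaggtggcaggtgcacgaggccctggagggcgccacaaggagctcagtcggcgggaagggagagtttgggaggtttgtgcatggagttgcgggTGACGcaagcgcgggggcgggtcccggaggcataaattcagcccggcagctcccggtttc
Junb: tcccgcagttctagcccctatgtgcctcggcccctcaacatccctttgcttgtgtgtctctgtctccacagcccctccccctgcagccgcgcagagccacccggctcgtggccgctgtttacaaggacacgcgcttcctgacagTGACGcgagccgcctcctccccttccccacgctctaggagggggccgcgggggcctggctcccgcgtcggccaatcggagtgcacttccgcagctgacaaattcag
Jun: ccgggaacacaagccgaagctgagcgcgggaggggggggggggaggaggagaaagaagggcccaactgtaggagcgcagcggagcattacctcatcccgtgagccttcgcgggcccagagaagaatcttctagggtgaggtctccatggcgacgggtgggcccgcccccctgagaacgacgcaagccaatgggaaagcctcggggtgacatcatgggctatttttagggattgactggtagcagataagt
Nr4a1: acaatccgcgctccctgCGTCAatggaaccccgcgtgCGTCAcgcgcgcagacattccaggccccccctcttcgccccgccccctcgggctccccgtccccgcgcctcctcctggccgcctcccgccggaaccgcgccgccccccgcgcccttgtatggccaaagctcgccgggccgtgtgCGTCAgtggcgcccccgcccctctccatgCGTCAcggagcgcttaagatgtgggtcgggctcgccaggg

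By the GENCODE M21 annotation of GRCm38 the members are protein-coding genes spread over 9 chromosomes, with Junb and Ier2 both on chromosome 8 (chr8:84974484-84978718 and chr8:84661331-84662852, minus strand). Fos lies at chr12:85473890-85477273 (plus), Fosb at chr7:19302696-19310051 (minus), Jun at chr4:95049034-95052222 (minus), Atf3 at chr1:191170296-191218039 (minus) and Nr4a1 at chr15:101254269-101274795 (plus). Egr1 lies at chr18:34859823-34864984, Egr2 at chr10:67535475-67542188 and Egr3 at chr14:70077203-70082614, all on the plus strand.

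The half-site TGACG was present in 6 of the 7 members read, against 17.8% of the 32851 start-site windows of the same length, and Jun was the member without it. For Egr2, 5 start sites are annotated, and 3 of their windows held the half-site. Fos held it at -129 to -125 and at -66 to -62. Nr4a1 held it at 4 places, with the match nearest the start at -40 to -36, and its window was the richest of those shown in G and C, at 74.4%. The TATA box of Fos lay at -33 to -28, and no other member's window held those letters, against 7.59% of all windows. The CArG box, the binding element of serum response factor, was found on this search in Egr2 alone of the 7, against 1.47% of all windows. Egr2 had 5 windows to search. Egr1, Egr3 and Ier2 were not read, nor were bases farther than 250 before a start site, so elements there would be missed. Neither the full cAMP response element TGACGTCA nor the AP-1 site TGANTCA, searched on both strands, was in any of the 7, against 1.55% and 6.75% of windows. These are matches of letters in short windows, which overlap one another within the half-site and the full element.

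Per unit of transcript length, which is what FPKM measures, Nr4a1 had the highest level of the 10 in each of the 12 libraries, with a median of 85.4 FPKM. Jun followed at a median of 36.8 FPKM and ranked 2 or 3 in every library. Fos, at 22.9 FPKM, ranked anywhere from 2 to 7, and its neighbours Egr1 (19.5), Junb (13.5) and Ier2 (10.2) exchanged places with it from mouse to mouse, so that their order does not hold beyond the spread. Atf3 (5.24), Fosb (1.72), Egr2 (1.43) and Egr3 (0.826) were the lowest by median FPKM, and also exchanged places among themselves. Egr1 made up 77.1% to 93.7% of the summed FPKM of Egr1 to Egr4, Nr4a1 93.3% to 99.3% of the Nr4a family, Fos 41.2% to 82.0% of the Fos family, and Jun 39.8% to 61.4% of the Jun family. Fos was under 50% of its family in WT chow 2, WT chow 3 and KO high fat 1, and in the last 2 of these Fosl2, at 7.26 and 6.17 FPKM, stood above Fos. Jun was under 50% in 5 of the 12 libraries.

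Fos, the partner of Jun in the classical AP-1 dimer, stood at 41.5, 5.51 and 5.78 FPKM in WT chow 1, 2 and 3 and at 10.4, 79.9 and 23.0 FPKM in WT high fat 1, 2 and 3. In the KO it stood at 22.9, 10.2 and 25.3 FPKM on chow and at 4.47, 60.5 and 24.1 FPKM on high fat diet. WT high fat 2 and KO high fat 2 were the highest libraries, KO high fat 1 was the lowest, and each pair of groups overlapped. The group means were 17.6 ± 20.7 FPKM in WT on chow, 37.8 ± 37.0 in WT on high fat diet, 19.5 ± 8.12 in KO on chow and 29.7 ± 28.4 in KO on high fat diet (SD, n = 3 each), so that the SD was about as large as the mean in 3 of the 4 groups. The highest library exceeded the lowest 17.9-fold. The SD of Fos within groups, 1.41 on the log2(FPKM + 1) scale, was at or above that of 99.7% of all tested genes.

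Fosb, another Fos protein, was lower than Fos. In order of replicate it stood at 3.26, 0.494 and 0.291 FPKM in WT on chow, 1.59, 11.1 and 1.34 in WT on high fat diet, 3.07, 0.512 and 3.32 in KO on chow and 0.174, 11.0 and 1.85 in KO on high fat diet. The same 2 libraries were high and the same library was low as for Fos, with a 63.8-fold range. Junb, a Jun protein that can act against Jun on AP-1 targets, ranged less, from 7.35 FPKM in WT chow 3 to 28.8 in WT high fat 2 and 30.9 in KO high fat 2.

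Jun itself, the main partner of Fos, had a 2.28-fold range, less than that of Fos. Its SD within groups was still at or above that of 92.5% of all tested genes. Jun stood at 67.0, 32.6 and 34.0 FPKM in WT on chow and 36.2, 74.2 and 45.6 in WT on high fat diet. In the KO it stood at 32.8, 37.4 and 34.1 FPKM on chow and 36.0, 44.0 and 39.0 on high fat diet. Only WT chow 1 and WT high fat 2 exceeded 50 FPKM, and the 6 KO libraries lay between 32.8 and 44.0. Reads of Jun and Junb are not clean of neighbours, since Jun shares 232 exon bases with the antisense gene Junos and Junb shares 173 with Prdx2 on the other strand, and the counting is not stated to have used strand.

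Egr1, the most abundant Egr factor, stood at 21.3, 9.40 and 4.72 FPKM in WT on chow, 20.5, 53.7 and 14.3 in WT on high fat diet, 23.5, 13.1 and 21.0 in KO on chow and 6.19, 38.5 and 18.5 in KO on high fat diet. Again WT high fat 2 was highest and KO high fat 2 next, and WT chow 3 was lowest. Egr2, a related factor near the lower limit of testing, stood at 1.08, 1.30 and 0.931 FPKM in WT on chow and at 1.85, 1.50 and 1.73 in KO on chow, and these groups did not overlap. On high fat diet it stood at 0.886, 1.70 and 1.36 FPKM in WT and 1.20, 3.04 and 1.57 in KO, which did overlap. Egr3, another factor of this family, was under 3 FPKM throughout, from 0.208 in WT chow 3 to 2.97 in WT high fat 2.

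Atf3, a stress-induced repressor of the ATF/CREB family, ranged from 1.15 FPKM in WT high fat 1 to 13.2 in WT high fat 2, with KO high fat 2 next at 10.6. Ier2, a short nuclear protein, reached 17.7 FPKM in both WT high fat 2 and KO high fat 2 and was lowest in KO high fat 1, at 6.21 FPKM. Nr4a1 behaved otherwise. It stood at 128, 70.1 and 93.0 FPKM in WT on chow, 86.3, 159 and 127 in WT on high fat diet, 76.2, 84.6 and 73.5 in KO on chow and 67.8, 67.4 and 91.6 in KO on high fat diet. WT high fat 2 was again highest, but KO high fat 2, where Fos, Fosb, Junb, Egr1, Egr2, Atf3 and Ier2 were highest or next to highest, had the lowest Nr4a1 level of all 12 libraries. WT high fat 2 was the highest library for 7 of the 10 members and KO high fat 2 for the other 3, Junb, Egr2 and Ier2.

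**Figure D1:**
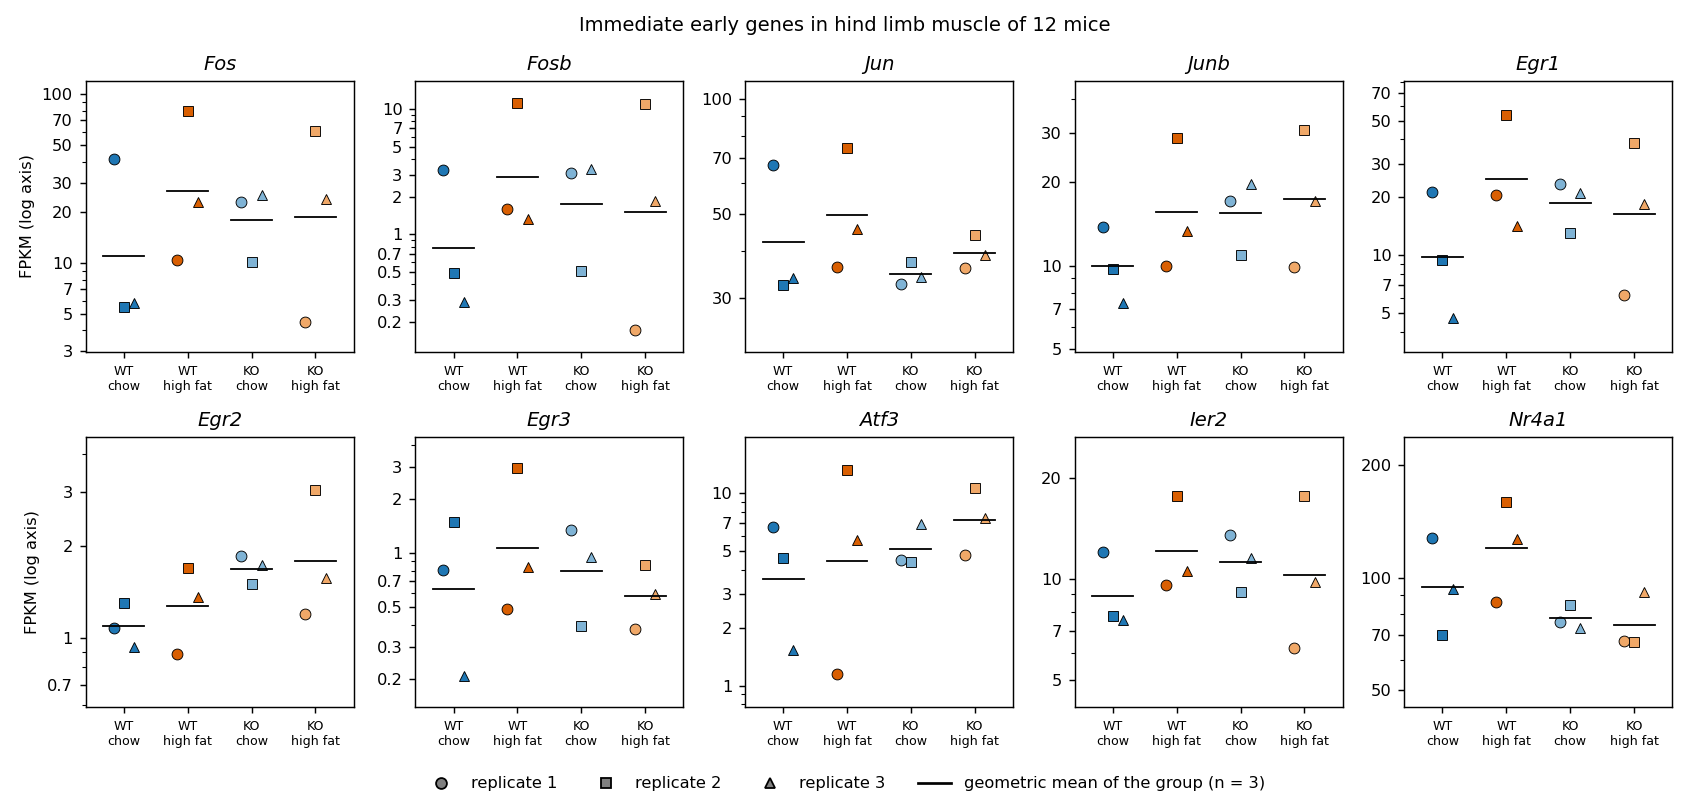
Each panel plots 1 gene, with FPKM on a log axis against the 4 groups; a point is 1 mouse, its shape the replicate number, and the line the geometric mean of 3 mice. Fos reached 79.9 FPKM in WT high fat 2 and 60.5 in KO high fat 2 and fell to 4.47 in KO high fat 1, whereas Nr4a1 was lowest, at 67.4, in KO high fat 2.

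The members varied together from mouse to mouse. Over the 12 libraries and on the log2(FPKM + 1) scale, Pearson's r was above 0 for 44 of the 45 pairs of members, with a median of 0.64 and a range from -0.25 (Egr2 with Nr4a1) to 0.97. After the group means were subtracted, all 45 were above 0, with a median of 0.70. A set of 5 genes, Fos, Fosb, Junb, Egr1 and Ier2, were the most tightly joined, and their 10 pairs had r from 0.89 to 0.97 over the libraries and from 0.91 to 0.98 after subtraction of group means. This set was picked after the values were seen. The points share the scaling of their library and, for the first set of values, their group, and r among these genes is given as a description.

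For Fos against each of the other 9 members, r was tested over the 12 samples with 100000 permutations, two-sided and without adjustment. Samples were permuted across the 4 groups, so p covers differences between groups as well as between mice. Fosb gave r = 0.94 (permutation p = 2e-05) and a Spearman rho of 0.95 (p = 4e-05), and Ier2 gave r = 0.94 (permutation p = 2e-05) and rho = 0.91 (p = 7e-05). Egr1 gave r = 0.91 (permutation p = 3e-05) and rho = 0.87 (p = 0.00041), and Junb r = 0.90 (permutation p = 7e-05) and rho = 0.89 (p = 0.0003). These 4 relations kept r between 0.88 and 0.93 in the 10 samples left without KO high fat 1 and WT chow 2. Those libraries had the lowest Fos levels and lay farthest from its median on the log2(FPKM + 1) scale. The libraries with the highest Fos levels, WT high fat 2 and KO high fat 2, stayed in, and r without them was not tested.

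Atf3 followed Fos at r = 0.75 (permutation p = 0.0044) with rho = 0.78 (p = 0.0044), and Jun at r = 0.73 (permutation p = 0.0053) with rho = 0.71 (p = 0.012). Without the same 2 samples their r was 0.90 and 0.72. Egr2 and Egr3 were looser, at r = 0.62 (permutation p = 0.028) with rho = 0.55 (p = 0.071) and r = 0.59 (permutation p = 0.04) with rho = 0.52 (p = 0.089), and their r without those samples was 0.63 and 0.80. For Nr4a1 the relation to Fos did not pass, at r = 0.51 (permutation p = 0.094) and rho = 0.36 (p = 0.25), and r was 0.33 without the 2 samples. Its closest relation was with Jun, at r = 0.83, and with the other 8 members r spanned -0.25 to 0.51. After subtraction of group means those 8 values spanned 0.12 to 0.62. Nr4a1 with Fos then stood at 0.62, and Egr3 with Fos at 0.59.

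The 10 tested genes outside the list whose pattern was most like that of the members were ranked by Pearson's r, over 12 samples and 11935 genes, with the mean z score of the 10 members. They were Jund (r = 0.91), Btg2 (0.89), Klf4 (0.85), Errfi1 (0.84), Zfp36 (0.84), Otud1 (0.83), Ier5 (0.83), Tctn3 (0.82), Rpl14 (0.81) and Dusp1 (0.80). Of these, 7, namely Jund, Btg2, Klf4, Errfi1, Zfp36, Ier5 and Dusp1, stood in the 4 lists of related genes used here, which hold 0.645% of the genes ranked. Jund encodes the third Jun protein, Zfp36 a protein that speeds the decay of AU-rich transcripts, and Dusp1 a phosphatase of MAP kinases. Btg2 was highest in WT high fat 2, at 36.2 FPKM, and stood between 7.36 and 16.2 FPKM in the other 11 libraries. Dusp1 was also highest there, at 115 FPKM, followed by WT chow 1 at 94.3.

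**Figure D2:**
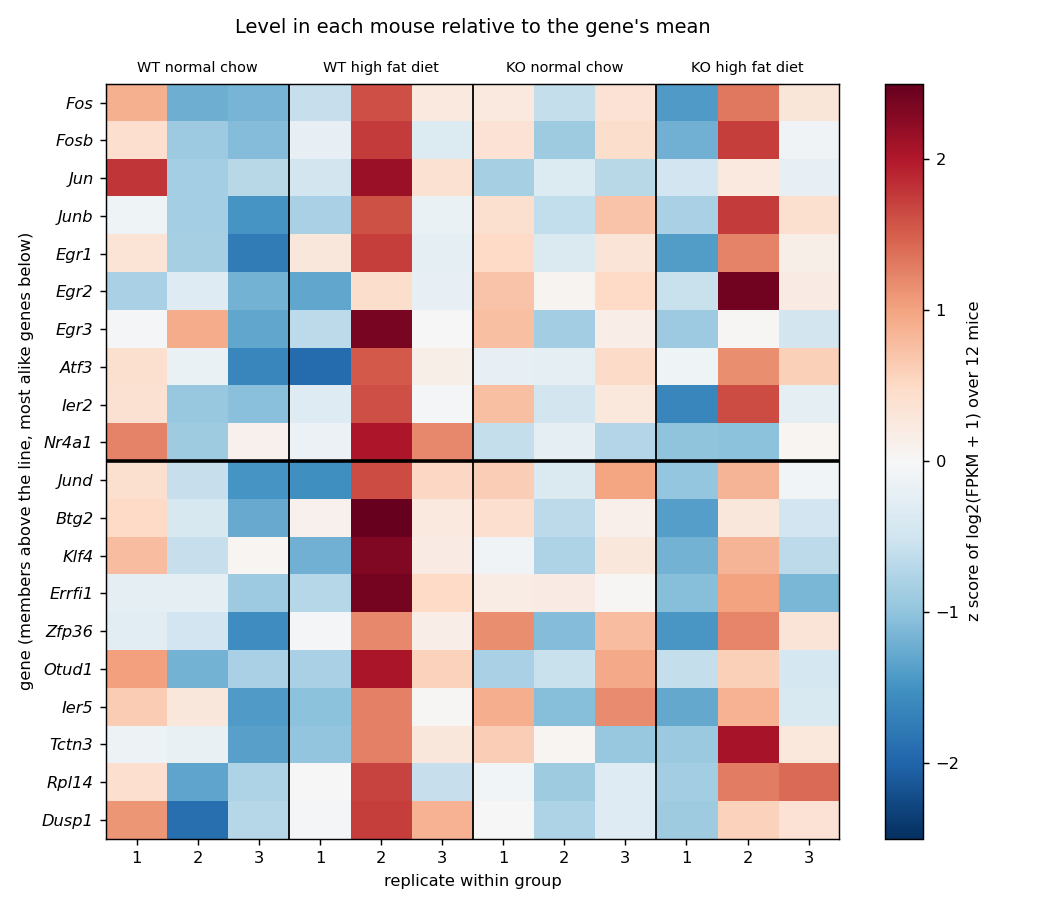
The z score of log2(FPKM + 1) over 12 mice is shown by colour for the 10 members, above the line, and the 10 most alike genes, below it; columns are mice in group and replicate order. The column of WT high fat 2 is above the mean in all 20 genes, and that of KO high fat 2 is above it in all but Nr4a1, while mean z over the members was 1.68 and 1.05 in these 2 libraries and -1.12 in WT chow 3.

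High fat diet did not move any member past the threshold in WT mice. The test was limma on log2(FPKM + 1), fitted across all 11945 genes with Benjamini-Hochberg adjustment, and this scale understates the change of low genes. In WT mice 0 of 10 members had an adjusted p under 0.05, against 0.1% of all tested genes, and 0 of 10 had an unadjusted p under 0.05, against 8.12%. All 10 differences (high fat minus chow) were above 0, against 46.4% of all tested genes. This rested on WT high fat 2, without which the differences for Jun, Egr3 and Atf3 were below 0 and that for Egr2 was 0.0093. The members varied together across mice, so here and below their signs are not separate observations. The differences ran from 0.13 for Egr2 (limma, adjusted p over all genes = 0.912) to 1.25 for Egr1, with a median of 0.38 against -0.01 over all tested genes. The difference for Egr1 had an SE of 0.66, a 95% interval from -0.20 to 2.71 and a limma adjusted p of 0.678. For Fos it was 1.19, with an SE of 0.99, an interval from -0.99 to 3.36 and a limma adjusted p of 0.837. Both intervals hold 0 as well as increases of severalfold. Single mice moved both values, and for Fos the difference was 0.42 without WT high fat 2 and 2.08 without WT chow 1, while for Egr1 it was 0.72 and 1.76 without the same libraries. In the 2 groups, 0 of 10 members had values that did not overlap, against 13.1% of all tested genes.

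In KO mice 0 of 10 members passed with adjustment, against 0.0% of tested genes, and 0 of 10 without it, against 11.3%. The differences ran from -0.21 for Egr3 to 0.43 for Atf3, and their median was 0.08 against 0.03 over all genes. Of the 10, 6 were above 0, against 56.0% of all tested genes. Fos differed by 0.09 (SE 0.99, 95% interval -2.09 to 2.26, limma adjusted p = 0.975). Its sign rested on single mice, since the difference was -0.71 without KO high fat 2, -0.30 without KO chow 2 and -0.064 without KO high fat 3. None of the 10 members had groups that did not overlap, against 16.9% of tested genes. Averaged over both genotypes, the diet differences of all 10 members were above 0, against 52.6% of all tested genes. They ran from 0.06 for Egr3 to 0.64 for Fos (SE 0.70, 95% interval -0.90 to 2.17), with a median of 0.29 against 0.01. The difference for Egr3 was -0.15 without WT high fat 2, -0.076 without WT chow 3 and -0.044 without KO chow 2. Again 0 of 10 passed with adjustment, against 0.0586% of tested genes, and 0 of 10 without, against 13.9%.

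On normal chow, where the question is what the missing chaperones alone change, 0 of 10 members passed the limma test with adjustment, against 0.0586% of tested genes, and 0 of 10 without it, against 16.7%. The differences (KO minus WT) ran from -0.27 for Jun to 0.84 for Egr1, and their median was 0.36 against -0.03 over all genes. Of the 10, 8 were above 0, against 45.0% of all tested genes. Without WT chow 1 the difference for Jun was 0.059. Fos differed by 0.64 (SE 0.99, limma adjusted p = 0.724, 95% interval -1.54 to 2.81). It differed by -0.60 when the 3 lymphocyte-rich libraries were left out. That fit leaves 2 WT mice and 1 KO mouse on chow, the lone mouse being assumed to vary like the other groups. In it the differences for Fosb, Egr3 and Ier2 were below 0 too, while those for Junb, Egr1, Egr2 and Atf3 stayed above 0. Egr2 was the only member whose groups did not overlap, 1 of 10 against 18.4% of all tested genes. Its mean was 1.10 ± 0.186 FPKM in WT and 1.69 ± 0.180 in KO (SD, n = 3), a log2 difference of 0.36 (SE 0.21, limma adjusted p = 0.367).

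On high fat diet the largest difference was a lower Nr4a1 level in the KO. Its mean was 124 ± 36.5 FPKM in WT and 75.6 ± 13.8 in KO (SD, n = 3), a log2 difference of -0.68 with an SE of 0.24 and a 95% interval from -1.21 to -0.14. The unadjusted p was 0.018 and the limma adjusted p 0.199, so it did not pass, and the highest KO value, 91.6 FPKM, lay above the lowest WT value, 86.3 FPKM. With 1 library left out in turn, the Nr4a1 difference spanned -0.91 to -0.48. No member had a limma unadjusted p under 0.05 without WT high fat 2, nor without KO high fat 2. With all libraries Nr4a1 was the only 1 of 10 members under an unadjusted p of 0.05, against 16.2% of tested genes. With adjustment 0 of 10 passed, against 0.109%. The other differences reached up to 0.49, for Atf3, and the median was -0.31 against -0.01. Of the 10, 3 were above 0, against 47.1% of all tested genes. Fos differed by -0.46 (limma adjusted p = 0.883), and by 0.30 without WT high fat 2 and 0.49 without KO high fat 1. The difference for Atf3 was -0.23 without WT high fat 1. No member of the 10 had groups that did not overlap, against 23.7% of tested genes.

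Averaged over diets, Nr4a1 was lower in the KO by a log2 difference of -0.47 (SE 0.17, 95% interval -0.85 to -0.10, limma adjusted p = 0.122), and Egr2 differed by 0.33 (SE 0.15, interval 0.01 to 0.65, limma adjusted p = 0.173). Both had an unadjusted p under 0.05, of 0.019 and 0.043, which makes 2 of 10 members against 26.5% of tested genes. With adjustment 0 of 10 passed, against 0.862%. The 6 WT and 6 KO libraries overlapped for each of the 10 members, against 2.71% of tested genes without overlap. Fos differed by 0.09 (SE 0.70, limma adjusted p = 0.949), and fell below 0 without WT chow 2, WT chow 3, WT high fat 1, KO chow 3 or KO high fat 2, reaching -0.31 without the last.

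Whether the diet difference depended on genotype was tested by the interaction, the diet difference in KO minus that in WT. It was below 0 for 9 of the 10 members, whereas it was above 0 for 55.4% of all tested genes. The median was -0.48 against 0.03 over all genes. Values ran from -1.41 for Egr1 (SE 0.94, 95% interval -3.47 to 0.65, limma adjusted p = 0.887) to 0.12 for Atf3. The value for Atf3 was -0.60 without WT high fat 1, -0.22 without WT chow 1 and -0.12 without KO high fat 2. Fos gave -1.10 (SE 1.40, limma adjusted p = 0.925). With 1 library left out, the value for Egr1 spanned -1.99 (without KO high fat 2) to -0.76 (without KO high fat 1), and that for Fos -1.99 (without WT chow 1) to -0.15 (without KO high fat 1). Here 0 of 10 passed with adjustment, against 0.0% of tested genes, and 0 of 10 without, against 6.25%. The diet differences in WT and KO mice share no library, but each shares its libraries with the genotype comparisons, so the signs across these comparisons are not independent.

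**Figure D3:**
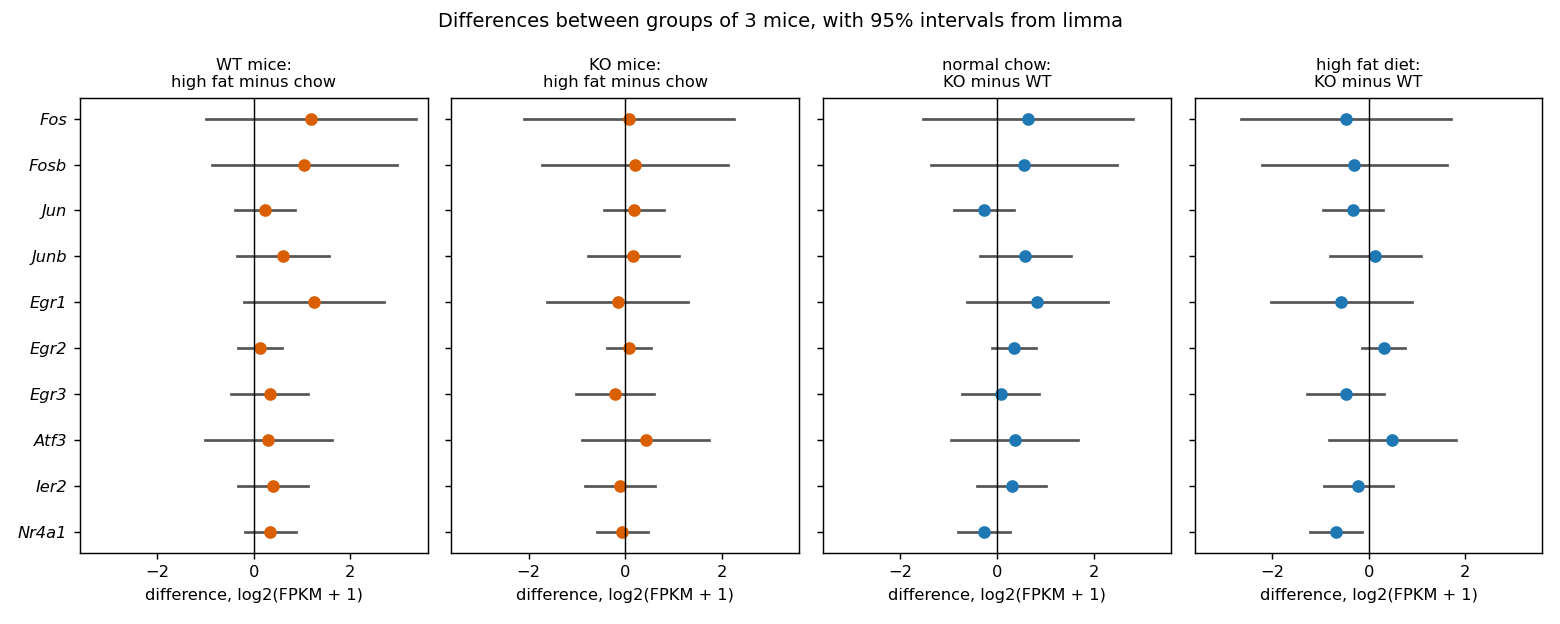
Points are differences between groups of 3 mice on the log2(FPKM + 1) scale and lines are 95% intervals from limma, for the 10 members in 4 comparisons. The interval lies wholly on one side of 0 only for Nr4a1 in KO minus WT on high fat diet, from -1.21 to -0.14, before adjustment for 11945 genes. In that comparison no member had a limma unadjusted p under 0.05 without WT high fat 2, nor without KO high fat 2.

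Beside the members, 4 lists of related genes were read. They were other early-response genes (31 of 36 tested), feedback regulators that end the response (18 of 18), the kinases and factors that switch it on (20 of 20) and AP-1 partners (9 of 12). Of the 77 genes tested in these lists, 1 passed the threshold, in 1 comparison, where 0.862% of all tested genes passed. Cdkn1a, which encodes the cell cycle inhibitor p21, stood at 7.02, 8.43 and 12.3 FPKM in WT on chow and 7.63, 13.3 and 12.1 in WT on high fat diet. In the KO it stood at 17.4, 24.5 and 39.2 FPKM on chow and 31.4, 50.7 and 23.2 on high fat diet. Every KO library lay above every WT library. Averaged over diets the log2 difference was 1.48 (SE 0.24, 95% interval 0.95 to 2.01, limma adjusted p = 0.0245), a 2.79-fold higher level on the FPKM + 1 scale. It was 1.41 on chow (limma adjusted p = 0.263) and 1.55 on high fat diet (limma adjusted p = 0.0817), neither of which passed.

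The call for Cdkn1a was lost in 5 of the 12 fits that left out 1 mouse and in 2 other settings. The limma adjusted p was 0.0884 without WT chow 1, 0.0511 without WT high fat 1, 0.0559 without KO chow 3, 0.0659 without KO high fat 1, 0.0676 without KO high fat 2, 0.0531 with no filter on low values and 0.211 without the 3 lymphocyte-rich libraries. The difference itself stayed between 1.33 and 1.61 in all fits. Macrophage marker sums ran higher in the KO but overlapped, from 131 to 292 FPKM in its 6 libraries against 39.2 to 146 in the 6 WT libraries. So did adipocyte sums (1800 to 4513 against 591 to 2171 FPKM) and fibroblast sums (844 to 1361 against 596 to 1010 FPKM). Endothelial sums ran lower, at 128 to 150 against 143 to 168 FPKM. The part of these cells in the Cdkn1a difference was not tested.

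In the same comparison no feedback regulator, upstream factor or AP-1 partner passed, against 0.862% of all tested genes. Dusp4, a phosphatase that turns off MAP kinases in the nucleus, stood between 0.809 and 1.38 FPKM in the 6 WT libraries and between 1.51 and 5.43 in the 6 KO libraries, and its log2 difference was 0.66 (limma adjusted p = 0.0700). Rps6ka5, a kinase that acts on histone H3 and Creb1 at early genes, differed by -0.40 (limma adjusted p = 0.0603), and Klf2, a factor induced by blood flow in endothelium, by -0.77 (limma adjusted p = 0.108). The list medians were -0.01 for other early-response genes, 0.04 for feedback regulators, -0.09 for upstream factors and 0.07 for AP-1 partners, against -0.02 over all tested genes. Single libraries moved some of these calls. Without KO chow 2 the limma adjusted p was 0.0340 for Dusp4, 0.0344 for Rps6ka5, 0.0448 for Atf4 and 0.0450 for Dusp6. In that fit 1208 of all tested genes passed, against 103 with all libraries. Its KO chow group held only KO chow 1 and KO chow 3, both lymphocyte-rich. Without the 3 lymphocyte-rich libraries, which leaves 1 KO mouse on chow, the difference was 0.42 for Dusp4, -0.26 for Rps6ka5 and 0.24 for Dusp6. Without WT high fat 3 the limma adjusted p was 0.0400 for Sgk1, and 491 of all tested genes passed.

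In the diet comparison of WT mice, 0 of 31 other early-response genes passed with adjustment, against 0.1% of all tested genes. An unadjusted p under 0.05 was found for 8 of the 31, against 8.12% of all tested genes. Gadd45g, a stress-induced growth arrest gene, stood at 30.0, 34.9 and 27.7 FPKM on chow and 74.9, 50.4 and 52.9 on high fat diet, without overlap, and its log2 difference was 0.91 (SE 0.17, limma adjusted p = 0.0906). Cyr61, a secreted matrix protein, differed by 1.10 (SE 0.26, limma adjusted p = 0.146). Spry4, a feedback inhibitor of receptor tyrosine kinase signalling, stood between 1.85 and 1.94 FPKM on chow and 2.65 and 2.94 on high fat diet, a difference of 0.41 (SE 0.08, limma adjusted p = 0.0999). The high levels of these 3 genes on high fat diet were spread over all 3 WT mice, whereas those of Fos and Fosb lay mostly in 1. The list medians were 0.21 for other early-response genes, 0.13 for feedback regulators, -0.06 for upstream factors and 0.02 for AP-1 partners, against -0.01 over all tested genes. In KO mice none of the 4 lists had a gene past the threshold, against 0.0% of all tested genes. There Gadd45g stood at 32.7, 33.3 and 37.8 FPKM on chow and 40.5, 50.5 and 33.6 on high fat diet.

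**Figure D4:**
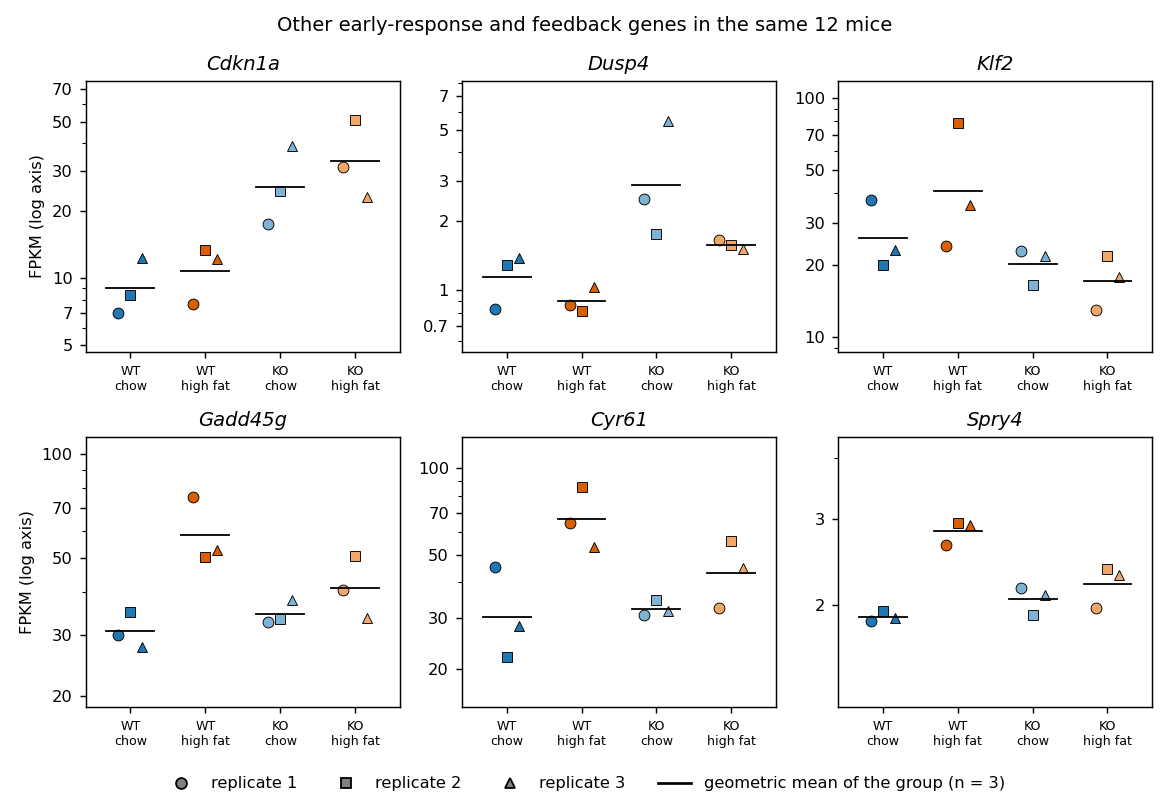
FPKM on a log axis is plotted for 6 related genes in the 4 groups, with 1 point per mouse and the geometric mean of 3 mice as a line. Cdkn1a separates the 6 KO mice (17.4 FPKM and above) from the 6 WT mice (13.3 and below), and Gadd45g in WT mice separates high fat diet (50.4 and above) from chow (34.9 and below).

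Markers of other cells and of stress were read beside the members' mean z score. WT high fat 2, the highest library, had a keratin and keratin-associated sum of 159 FPKM over 100 genes, against 4.33 to 18.5 in the other 11 libraries. KO chow 3 and KO high fat 2 were next, at 18.5 and 13.5 FPKM. Pearson's r of the log2 sum with the mean z score was 0.75 for keratins, 0.55 for 5 smooth muscle genes, 0.45 for 6 heat shock genes, 0.31 for fibroblast genes, 0.24 for macrophage genes, 0.09 for clock genes, 0.06 for neutrophil genes, -0.02 for T cell genes, -0.03 for B cell genes, -0.06 for muscle fibre genes without Acta1 (-0.45 with it), -0.15 for adipocyte genes, -0.18 for nerve and Schwann cell genes and -0.23 for endothelial genes, each over 12 samples and given as a description. Most of the heat shock sum, 565 to 853 FPKM, came from Hspa8, at 505 to 731 FPKM, so its r mainly describes that gene. Hspa1a, the inducible Hsp70 gene, stood at 16.3 FPKM in WT high fat 2, 14.2 in KO chow 3 and 10.7 in WT chow 1. In the other 9 libraries Hspa1a stood between 1.76 and 7.76 FPKM. Its reads cannot be told from those of its near-identical copy Hspa1b. KO high fat 2 had the highest macrophage sum, at 292 FPKM. Neutrophil sums were highest in WT high fat 1, at 946 FPKM, where the members' mean z was -0.61. The part of skin, smooth muscle, immune or stress genes in the levels of the members was not tested.

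**Figure D5:**
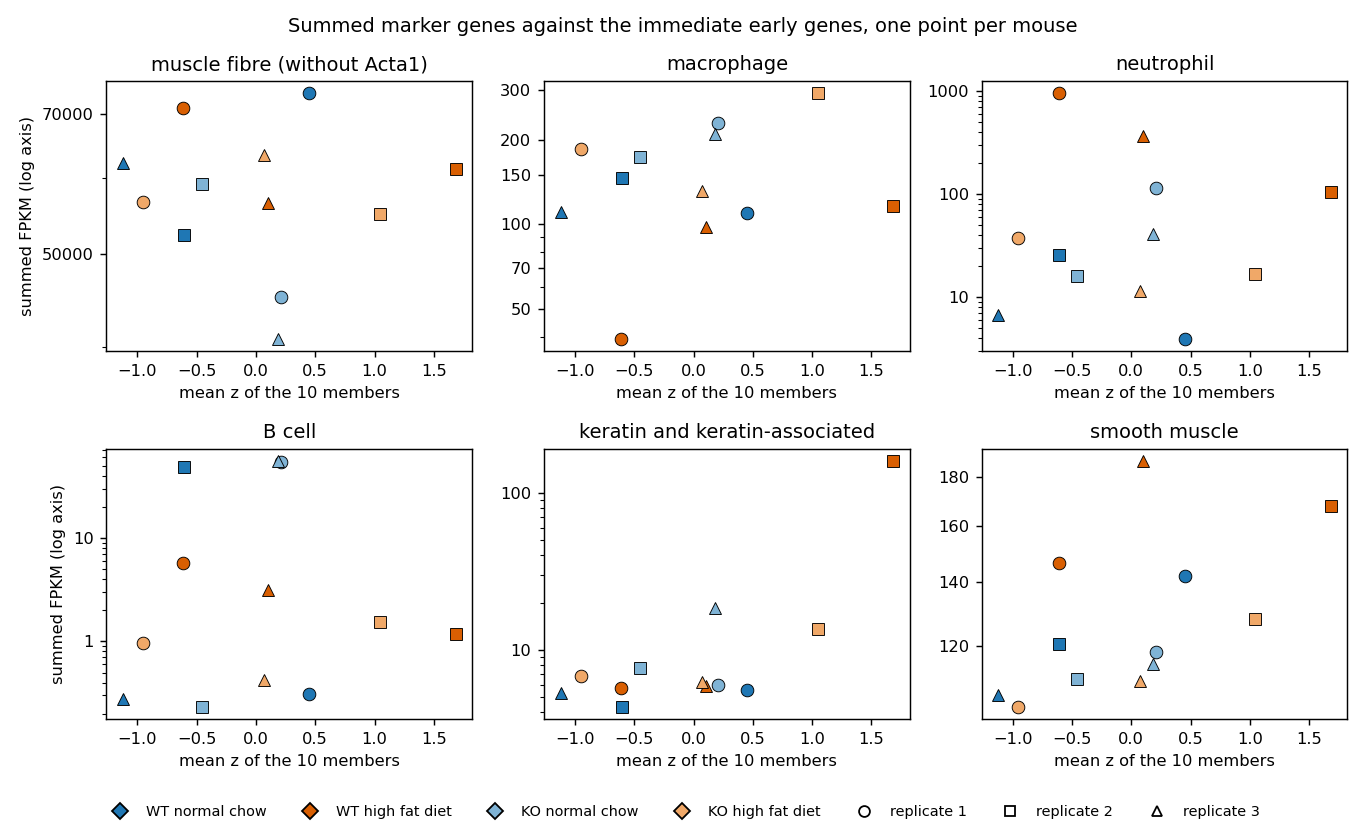
Each panel plots the summed FPKM of 1 marker list, on a log axis, against the mean z score of the 10 members, with 1 point per mouse, coloured by group and shaped by replicate. In the keratin panel WT high fat 2 stands alone at 159 FPKM and a mean z of 1.68, and in the neutrophil panel the highest sum, 946 FPKM, belongs to a mouse with a mean z of -0.61.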

How the data were processed

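RNA was sequenced from proximal hind limb muscle of 12 male mice, 3 per group, prepared with a TruSeq RNA kit. The authors deposited FPKM values per gene symbol for each library, without pooling replicates, and some symbols appear more than once. The submitters' processing notes name TopHat2 2.0.8b, Cuffdiff 2.1.1 and mm10, and the annotation is not given in the sources used here. The unit FPKM was read from the deposited values. Cuffdiff can list a gene at 0 where its estimate failed, and the tables hold no counts, so no count test was run.

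Samples were grouped by title. Of the 23179 entries per table, the highest-mean entry of a repeated symbol was kept. Of the 22923 symbols, those at or above 1 FPKM in 3 or more samples entered limma 3.58.1 (run in R 4.3.3) as log2(FPKM + 1), with 4 group means, 8 residual degrees of freedom, a variance trend on mean level and Benjamini-Hochberg adjustment at 0.05, in 7 comparisons. The script was checked on simulated data. The remaining steps used pandas 2.3.3, SciPy 1.17.1 and NumPy 2.4.6 under Python 3.11.15. The study calls its samples independent, and p-values measure only the spread between these samples.

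The members and lists were chosen with earlier results of these data known. Genes named were Cryab, Hspb2, the members, listed genes past the threshold with up to 6 more per comparison by smallest unadjusted p, and the 10 genes most like the members, and further genes were named after their values were seen. Alternatives were a pseudocount of 0.1, no filter, a replicate block, median-of-ratios size factors, quantile normalization, robust moderation, only the 2 groups compared, leaving out each library, and, chosen after seeing the data, leaving out the 3 lymphocyte-rich libraries. Promoters and gene overlaps came from RefSeq and GENCODE M21.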

Additional observations from a re-analysis of the deposited data

How the results depend on the processing

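No member passed the threshold under any setting, and the lowest limma adjusted p of a member over all settings was 0.0644. The number of genes called among all tested moved more. For diet in WT mice it was 12, and 7 with a replicate block, 3 with only the 2 groups and 1 without the lymphocyte-rich libraries. In KO mice it was 0, and 6 with no filter, 9 with quantile normalization and 7 with only the 2 groups. For genotype on chow it was 7, and 4 both with the block and with only the 2 groups. On high fat diet it was 13, and 24 with no filter, 5 with the block, 26 with quantile normalization and 8 with only the 2 groups. For the averaged diet difference it was 7, and 1 both with the block and without the lymphocyte-rich libraries. For the averaged genotype difference it was 103 (77 higher and 26 lower), and 42 with no filter, 40 with the block, 200 with quantile normalization (119 higher and 81 lower) and 11 without the lymphocyte-rich libraries. For the interaction it was 0, and 1 with no filter.

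Leaving out 1 library in turn, these counts spanned 1 to 32, 0 to 10, 4 to 14, 4 to 82, 1 to 18, 10 to 1208 and 0 to 1 in the same order. Over the same fits the Fos difference spanned -0.71 to 1.03 for diet in KO mice, -1.26 to 0.49 for genotype on high fat diet and -0.31 to 0.56 for genotype averaged over diets. Jun spanned -0.45 to 0.059 for genotype on chow, Atf3 -0.23 to 1.13 for genotype on high fat diet and -0.60 to 0.75 for the interaction, and Egr3 -0.15 to 0.20 for diet averaged over genotypes. The Fos diet difference in KO mice was -0.00203 with quantile normalization. Without the lymphocyte-rich libraries Fos was -0.60 for genotype on chow, -0.53 for genotype averaged over diets and 0.14 for the interaction, and Egr3 was 0.20 for diet in KO mice. The causes were not tested. Correlations of same-numbered deviations between groups spanned -0.81 to 0.39, which gave no clear sign that replicate numbers pair the samples. Differently numbered deviations were not compared, so pairing is not excluded. With 3 mice per group and members this variable, the 95% intervals given set the precision, and a p that missed the threshold does not show that levels were alike.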
